A study of Drosophila melanogaster with 14 samples.

Results

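The Eip75B locus was described through 195 binding peaks of 4 insulator proteins, out of 81028 in the series and 13772 on chromosome arm 3L. A peak was included when it overlapped, by at least 1 bp, a window of 200 kb from 17.9 to 18.1 Mb on 3L that surrounds Eip75B. The locus was selected on peak presence: earlier results of these data had shown peaks gained and lost there, so counts of peaks, gains and losses are given as descriptions, with no test. Each of CP190, Su(Hw), dCTCF and BEAF-32 was mapped by chromatin immunoprecipitation and sequencing in Kc167, an embryonic Drosophila melanogaster cell line kept in serum-free medium. The BEAF-32 antibody was raised against the BEAF-32B form, per the labels. Cells were untreated (0 h) or had received 20-hydroxyecdysone for 3 or 48 h, at 5e-07 M per the labels of the 3 h samples; the 48 h labels give the same figure without a unit. There was 1 library per protein and time, so no difference between times has a replicate check. The 2 input libraries of untreated cells were not analysed here.

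Eip75B, also called E75, is an early response gene of ecdysone, the steroid that times moulting and metamorphosis. The hormone binds a heterodimer of the nuclear receptors EcR and Usp, which switches on a small set of early genes, and several of these encode transcription factors that act on later genes. The E75 proteins are haem-binding nuclear receptors of the Rev-Erb family, made as isoforms from alternative promoters of a long gene. Insulator proteins mark boundaries between chromatin domains and bear on which enhancers reach which promoters. Su(Hw), dCTCF and BEAF-32 bind DNA, and CP190 is a shared cofactor that they bring to chromatin.

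In the RefSeq gene table of Release 6, the nearest protein-coding genes beside Eip75B are CG5290 on the side of lower coordinates and CG44006 on the other. CG32192, CG42393 and the noncoding RNAs lncRNA:CR45921 and lncRNA:CR45922 lie within its interval. The peak lists use the sequence names of Release 5, so peaks were not assigned to promoters, exons or introns, and the place of the gene in the window rests on how the window was chosen. No genome sequence of that release was used here, so no DNA sequence is shown.

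The peaks of all 12 lists merged into 47 regions that covered 21.2% of the window. In untreated cells 12 CP190 peaks were listed, against 12 after 3 h and 9 after 48 h of hormone. Over the same times the Su(Hw) lists gave 30, 32 and 30 peaks, those of dCTCF 12, 15 and 12, and those of BEAF-32 7, 12 and 12. Su(Hw) thus gave 92 of the 195 peaks and was present at some time in 43 of the 47 regions (68.8% on 3L). On 3L as well, Su(Hw) had the most peaks of the 4 proteins at each time, with 1617, 1685 and 1646.

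**Figure D1:**
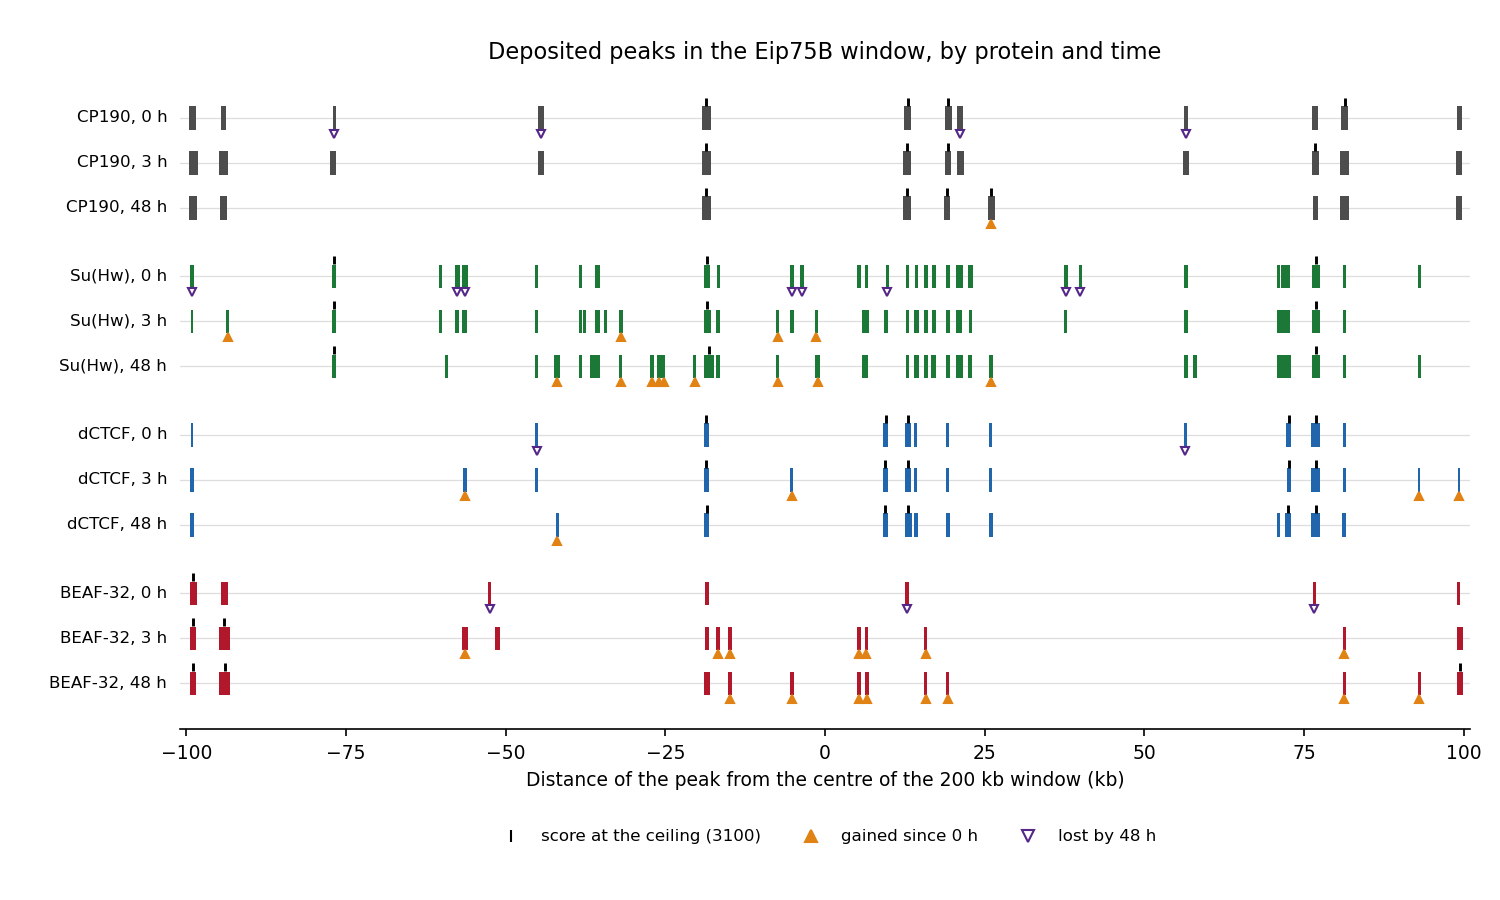
Peaks of each protein and time (1 track per list; bar width is peak width) against distance from the centre of the window in kb. Black ticks mark scores at the ceiling of 3100, orange triangles peaks gained since 0 h, and open triangles 0 h peaks lost by 48 h; Su(Hw) gains at 48 h lie in the left part of the window, apart from 1 at 26.05 kb.

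The regions were unevenly placed. The longest stretch with less than 4 kb between neighbours held 11 regions in 21.7 kb, at 3L:18004967-18026631, and Su(Hw) was found in each of the 11, at all 3 times in 8. The widest gaps without a peak of any protein measured 16001, 15852 and 15693 bp, and the first of them ended at 3L:17939500. Members nearest to the edges of the window lay 0.34 kb inside its left end and 0.07 kb inside its right end, and the nearest peaks left out lay 7.18 and 1.91 kb beyond those ends.

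All 4 proteins met at some time in 6 of the 47 regions (14.1% on 3L), and 3L:17980752-17982675 was the only one in which all 12 lists had a peak (5.04% on 3L). There CP190, Su(Hw) and dCTCF peaks stood at the score ceiling at every time. The score is the authors' own value per peak, of unknown definition, so scores of different lists, also where printed side by side, were not compared. Of the 81028 peaks, 23590 share the value 3100, called the ceiling here, and 488 score above it, none of them in the window. The lowest score in any list is 100, and several of the peaks called gained or lost below score little above it. BEAF-32 scored 1532.13 at 0 h, 2189.91 at 3 h and 1271.53 at 48 h in that region, above 57.9%, 54.4% and 44.8% of its list.

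In the other 5 regions, 1 protein was missing at some time. At 3L:17900344-17901744, the leftmost region, CP190, dCTCF and BEAF-32 were present throughout and Su(Hw) at 0 and 3 h. At 3L:18012274-18013588 and 3L:18076152-18077546, CP190, Su(Hw) and dCTCF were present throughout and BEAF-32 at 0 h alone. At 3L:18018697-18019884 the same 3 proteins were joined by BEAF-32 at 48 h, and at 3L:18080704-18082017 by BEAF-32 at 3 and 48 h. In 4 of these 5 regions it was therefore BEAF-32 that came or went, while dCTCF and CP190 kept a peak at each time in all 5. On 3L, BEAF-32 was present at all times in 52.1% of its regions, dCTCF in 59.6%, Su(Hw) in 69.6% and CP190 in 73.6%. These shares are for all regions of a protein, and those for regions with all 4 were not determined.

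CP190 kept all of its 0 h peaks at 3 h and lost 4 of 12 by 48 h. A peak was called lost when the later list had no peak of that protein within 1 kb, and gained when the earlier list had none. At 3 h, 0 of 12 CP190 peaks were gained and 0 of 12 lost, beside 10.7% and 2.7% of CP190 peaks on 3L. At 48 h, 1 of 9 was gained, beside 9.24% on 3L, and 4 of 12 lost, beside 10.9%. The 4 strongest 0 h peaks, at the ceiling, lay in the regions that begin at 17980752, 18012274, 18018697 and 18080704, and each had a CP190 peak at 3 and 48 h. At each time 4 CP190 peaks of the window stood at the ceiling, beside 19.6%, 24.2% and 21.8% on 3L. The region at 18076152 was among them at 3 h, when the one at 18080704 scored 3043.59, and a gained peak was among them at 48 h.

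The lost CP190 peaks were all in the lower 50% of the list, as were most of those lost on 3L, where 0.331% of CP190 peaks in the upper 50% were lost. They lay at 3L:17922882-17923359 (score 361.63 at 0 h), 3L:17955009-17956061 (score 208.23), 3L:18020735-18021586 (score 178.58) and 3L:18056203-18056834 (score 133.82), above 9.3% to 41.5% of the list. All 4 were still listed at 3 h, with scores of 380.64, 368.53, 459.82 and 183.74. Su(Hw) had a peak in each of these regions at all 3 times, at the first of them with a score at the ceiling, and BEAF-32 had none at any time. On 3L, Su(Hw) was present at some time in 49.1% of 110 regions with CP190 at 0 and 3 h only. It was present in 75% of 980 regions with CP190 throughout.

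The 8 regions with CP190 at all times each held BEAF-32 at 1 time or more. On 3L, BEAF-32 was present at some time in 62.6% of 980 regions with CP190 throughout (95% Wilson interval 59.5 to 65.5) and in 60% of 110 regions with CP190 at 0 and 3 h only (50.7 to 68.7), so the split seen in the window did not extend to the arm. Of the 13 CP190 regions, 8 held it at all times (73.6% on 3L), 4 at 0 and 3 h only (8.26%) and 1 at 48 h only (4.58%). The comparison of partners was chosen after the values were seen. Wilson intervals cover counting error only.

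The single CP190 gain, 3L:18025463-18026631 at 48 h, stood at the ceiling, and on 3L 4 of 593 CP190 peaks in the upper 50% of the 48 h list were gained (0.675%). A dCTCF peak lay there at each time, with scores of 1377.74 at 0 h, 546.38 at 3 h and 1499.89 at 48 h. A Su(Hw) peak, 3L:18025746-18026346 (score 412.83), was also listed there at 48 h and at no other time. In this region dCTCF alone at 0 and 3 h was thus followed by dCTCF, CP190 and Su(Hw) at 48 h.

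CP190 peaks seldom stood alone. At 0 h, 10 of 12 overlapped a Su(Hw) peak (65.2% on 3L), 8 a dCTCF peak (48.9%) and 6 a BEAF-32 peak (45.9%), and all 12 overlapped at least 1 of the 3 (89%). At 3 h the counts were 10 of 12 for Su(Hw) (62.1%), 7 for dCTCF (44.6%), 5 for BEAF-32 (55.4%) and 11 for any of them (93.8%). The exception at 3 h was 3L:17955103-17955993, whose region also held Su(Hw) and dCTCF peaks that did not overlap it. At 48 h, 6 of 9 overlapped Su(Hw) (62.9% on 3L), 7 dCTCF (38.2%) and 6 BEAF-32 (53.6%), and all 9 overlapped at least 1 (93.3%). The centres of overlapping CP190 and Su(Hw) peaks lay a median of 62.25 bp apart at 0 h, 122.5 bp at 3 h and 57.5 bp at 48 h.

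Su(Hw), the protein of the gypsy insulator, had the most peaks of the 4. As a count it also had the most changes by 48 h, with 9 gained (11.3% on 3L) and 8 lost (10.1%). By share of its peaks BEAF-32 changed more, with 8 of 12 gained (34.6% on 3L) and 3 of 7 lost (11.3%). Su(Hw) had a peak at all times in 18 of its 43 regions, beside 69.6% of 1881 Su(Hw) regions on 3L. Another 7 regions held it at 0 and 3 h only (5.9% on 3L), 3 at 0 h only (4.36%), 1 at 0 and 48 h (2.02%), 3 at 3 and 48 h (3.24%), 3 at 3 h only (6.22%) and 8 at 48 h only (8.67%). The 2 treated lists share the 0 h list as their reference.

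The Su(Hw) peaks at the ceiling were the same 3 regions in every list, those that begin at 17922546, 17980752 and 18076152. No Su(Hw) peak in the upper 50% of its list was gained or lost in the window, which is also nearly so on 3L: gains there were 0% at 3 h and 0.374% at 48 h, and losses 0% at both. The scores of gained and lost Su(Hw) peaks in the window ranged from 100.45 to 732.44.

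At 3 h, 4 of 32 Su(Hw) peaks were gained (8.31% on 3L). They were 3L:17906242-17906678 (score 100.45), 3L:17967747-17968308 (score 313.73), 3L:17992383-17992867 (score 121.45) and 3L:17998386-17998859 (score 196.77). The first lay on a CP190 and BEAF-32 region and was absent at 48 h. None of the other 3 places held a second protein in any list, and Su(Hw) was listed there at 48 h too.

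Losses at 3 h were 3 of 30 (6.37% on 3L), at 3L:17996117-17996638 (score 162.27), 3L:18039718-18040205 (score 354.22) and 3L:18092847-18093306 (score 133.46). The last was listed again at 48 h, as 3L:18092843-18093302 (score 115.42). The first and second were absent from both treated lists, and no other protein had a peak at either.

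At 48 h, 9 of 30 Su(Hw) peaks were gained (11.3% on 3L). Those at 3L:17967733-17968264 (score 227.79), 3L:17992374-17992837 (score 110.39) and 3L:17998399-17999276 (score 512.75) overlapped 3 h gains. New at 48 h were 3L:17972547-17973220 (score 417.6), 3L:17973690-17974402 (score 494.6), 3L:17974461-17975010 (score 230.39) and 3L:17979347-17979836 (score 114.95), where no other protein was listed at any time. The remaining gains, 3L:17957605-17958454 (score 620.33) and the peak at 18025746 described above, were shared with dCTCF. In 7 of the 9 gained places Su(Hw) was thus the only one of the 4 proteins ever listed.

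By 48 h, 8 of 30 Su(Hw) peaks were lost (10.1% on 3L). Besides 3L:17996117-17996638 and 3L:18039718-18040205, which were gone at 3 h, they were 3L:17900641-17901134 (score 180.71), 3L:17942093-17942808 (score 378.75), 3L:17943124-17944025 (score 732.44), 3L:17994535-17995070 (score 246.66), 3L:18009485-18010059 (score 204.75) and 3L:18037404-18038063 (score 336.24). Those 6 had a peak at 3 h. Losses numbered 3, 2, 3 and 0 in the 4 successive stretches of 50 kb, whereas gains numbered 0, 8, 1 and 0.

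Some changes fell short of a call. The Su(Hw) peak 3L:17939503-17940045 of 0 h was not listed at 48 h, but 3L:17940494-17940953 was, less than 1 kb away, and the pair counts neither as lost nor as gained. In 3L:18070726-18073023, Su(Hw) was listed as 2 neighbouring peaks at 0 and 3 h and as 1 peak of 2146 bp at 48 h.

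Fewer of the Su(Hw) peaks overlapped CP190 than on the arm as a whole. It overlapped a CP190 peak in 10 of 30 cases at 0 h, 10 of 32 at 3 h and 6 of 30 at 48 h, beside 48.2%, 49.5% and 45% on 3L. Overlap with dCTCF was seen for 11, 12 and 9 Su(Hw) peaks at these times, beside 31%, 29.8% and 25%. Over all times, 20 of the 47 regions held Su(Hw) and no other protein (27.7% on 3L). The spacing of neighbouring Su(Hw) peaks had a median of 3137 bp at 0 h, 3234 bp at 3 h and 3680 bp at 48 h, beside 9001.5, 8241 and 8385.5 bp on 3L.

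dCTCF, the fly counterpart of the vertebrate boundary protein CTCF, had a stable set of strong peaks and a fringe of weak ones. The same was seen on 3L. There, dCTCF peaks in the upper 50% of the list were gained in 0% of cases at both treated times. Losses among them were 0% at 3 h and 0.267% at 48 h. It was present at all times in 10 of its 17 regions (59.6% on 3L) and at 3 h only in 4 (11.4%). At each time 5 dCTCF peaks stood at the ceiling, beside 30.8%, 26.1% and 37.6% of dCTCF peaks on 3L, and they lay in the same 5 regions, which begin at 17980752, 18009022, 18012274, 18070726 and 18076152. The region 3L:18009022-18010059 and the region 3L:18070726-18073023 had no CP190 peak at any time. On 3L, 35.3% of dCTCF peaks at the ceiling lacked CP190 at 0 h (29.7 to 41.4), 30.2% at 3 h and 35.1% at 48 h, and in the window 2 of 5 did so at each time.

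At 3 h, 4 of 15 dCTCF peaks were gained (14.1% on 3L) and 1 of 12 was lost (13.2%). The gains were 3L:17943328-17944008 (score 200.54), 3L:17994547-17995057 (score 101.32), 3L:18092876-18093240 (score 114.42) and 3L:18099116-18099427 (score 130.61), and none of them was listed at 48 h. The first and second lay on Su(Hw) peaks that were present at 0 and 3 h and lost by 48 h, and the last lay on CP190 and BEAF-32 peaks present throughout. The third lay where Su(Hw) was listed at 0 and 48 h but not at 3 h.

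At 48 h, 1 of 12 dCTCF peaks was gained (6.38% on 3L) and 2 of 12 were lost (23.8%). The gain, 3L:17957813-17958371 (score 114.32), lay within the Su(Hw) peak gained at the same time. The losses were 3L:18056192-18056628 (score 104.23), which was also absent at 3 h, and 3L:17954628-17955043 (score 108.71), which was present at 3 h (score 147.55). Both lay in regions where CP190 was lost by 48 h and Su(Hw) stayed.

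Partner counts of dCTCF leaned to Su(Hw), which was present at some time in 43 of the 47 regions (68.8% on 3L). It overlapped a Su(Hw) peak in 11 of 12, 12 of 15 and 10 of 12 cases at 0, 3 and 48 h, beside 60.9%, 60.6% and 62.1% on 3L. Overlap with CP190 came to 8 of 12, 7 of 15 and 7 of 12, beside 72%, 72.2% and 68.6%. Regions with Su(Hw) and dCTCF and neither of the other proteins numbered 3 of 33 occupied regions at 0 h (2.26% on 3L), 4 of 37 at 3 h (1.67%) and 3 of 37 at 48 h (1.11%).

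BEAF-32, a boundary element factor often found near promoters, held the smallest share of its regions throughout, as it was present at all times in 4 of its 18 regions (52.1% on 3L). These were 3L:17900344-17901744 and 3L:17905099-17906852 at the left edge, 3L:17980752-17982675, and 3L:18098833-18099933 at the right edge. The first stood at the ceiling at every time and the second at 3 and 48 h. In the last of them its score was 167.04 at 0 h, 2774.07 at 3 h and at the ceiling at 48 h, above 15.2%, 57.6% and 57.9% of its own list. A further 5 regions held it at 3 and 48 h only (27.1% on 3L), 3 at 0 h only (6.89%), 3 at 3 h only (5.92%) and 3 at 48 h only (6.57%).

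At 3 h, 7 of 12 BEAF-32 peaks were gained (34.2% on 3L). The highest score among them, 1606.24, belonged to 3L:17984825-17985470, listed at 48 h as 3L:17984798-17985497 (score 1935.43), where no other protein had a peak at any time. The others were 3L:17943215-17944019 (score 273.11), 3L:17983005-17983486 (score 120.7), 3L:18005048-18005638 (score 680.78), 3L:18006192-18006689 (score 183.29), 3L:18015506-18016035 (score 291.36) and 3L:18081090-18081501 (score 202.02). Each of these 6 lay in a region where Su(Hw) had a peak at 0 h, and at 3L:18080704-18082017 CP190 and dCTCF were present as well. Su(Hw) was present at some time in 43 of the 47 regions of the window, and the share for gained BEAF-32 peaks on 3L was not determined.

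At 48 h, 8 of 12 BEAF-32 peaks were gained (34.6% on 3L). Besides the peak at 17984798 they were 3L:18004967-18005663 (score 725.7), 3L:18006259-18006924 (score 169.84), 3L:18015488-18016018 (score 211.79) and 3L:18081048-18081553 (score 416.77), at places gained at 3 h too, and 3L:17994582-17995129 (score 205.65), 3L:18018978-18019467 (score 303.44) and 3L:18092791-18093343 (score 177.62), which were absent at 3 h. At 3L:17994509-17995129 the BEAF-32 peak was listed when the Su(Hw) peak of 0 and 3 h no longer was. At 3L:18004967-18005663 Su(Hw) was listed at 0 h and BEAF-32 at 3 and 48 h.

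BEAF-32 lost 2 of 7 peaks by 3 h (11.5% on 3L) and 3 of 7 by 48 h (11.3%). The peaks 3L:18012574-18013147 (score 648.75) and 3L:18076360-18076916 (score 212.11) were absent from both treated lists, in regions where CP190, Su(Hw) and dCTCF stayed. The third, 3L:17947242-17947757 (score 127.24), had a BEAF-32 neighbour within 1 kb at 3 h, 3L:17948250-17949032 (score 290.07), and none at 48 h. BEAF-32 overlapped Su(Hw) in 4 of 7, 8 of 12 and 6 of 12 cases at 0, 3 and 48 h, beside 44%, 41% and 38.3% on 3L. It overlapped CP190 in 6 of 7, 5 of 12 and 6 of 12, beside 68.5%, 63.9% and 55%. Of the 7 peaks gained at 3 h, the one at 18081090 was the only one that overlapped CP190. The shares on 3L are for all BEAF-32 peaks, and the share for gained peaks alone was not determined.

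**Figure D2:**
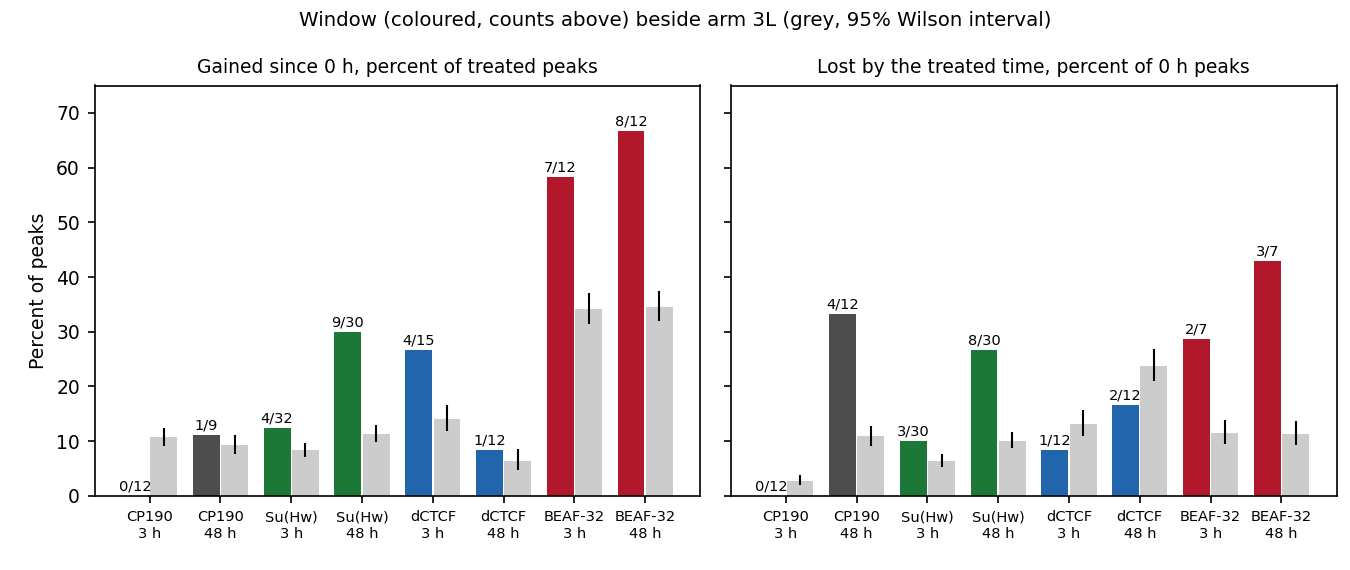
Percent of peaks gained (left) and lost (right) since 0 h in the window (coloured bars, counts above) and on the whole of 3L (grey bars with 95% Wilson intervals), by protein and treated time. The highest bars of the window are those of BEAF-32, with 7 of 12 and 8 of 12 peaks gained.

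Over the 4 proteins, 15 of 71 peaks were gained at 3 h (15.8% on 3L) and 6 of 61 lost (7.59%), so gains outnumbered losses in the window as on the arm. At 48 h, 19 of 63 were gained (15.8%) and 17 of 61 lost (13.1%). With a distance limit of 2 kb in place of 1 kb, 5 Su(Hw) peaks were lost by 48 h in place of 8, and with scores of at least 200, 2 CP190 peaks in place of 4. Between the treated times, with the 3 h list as reference, CP190 gained 1 and lost 4 peaks, Su(Hw) gained 7 and lost 7, dCTCF gained 2 and lost 5, and BEAF-32 gained 3 and lost 2. Of the dCTCF gains, 3L:18070811-18071261 (score 115.52), was not a gain since 0 h. The shares on 3L for gains were 5.24%, 9.9%, 8.71% and 6.8%, and for losses 14.5%, 10.2%, 26.6% and 6.27%, in the same order.

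The Su(Hw) peaks of the window had lower scores than those of 3L in each of the 3 lists. In the 0 h list the median score was 482.60 in the window and 726.62 on 3L, in the 3 h list 453.61 and 729.18, and in the 48 h list 415.22 and 758.49. At the 3 times 3 of 30, 3 of 32 and 3 of 30 peaks stood at the ceiling, beside 33.1%, 33% and 32.9% on 3L. Within the lower 50% of each list, a split made after the scores were seen, 9 of 22 Su(Hw) peaks of the window were gained at 48 h, beside 21.7% on 3L (19.1 to 24.6), and 8 of 21 were lost, beside 19.7% (17.1 to 22.5). At 3 h the counts were 4 of 22, beside 16.3%, and 3 of 21, beside 12.4%. For CP190 at 48 h, 4 of 6 weak peaks were lost, beside 22.6%, and for BEAF-32 7 of 8 weak peaks were gained, beside 64.9%. The split uses the calls on which the locus was selected, so it is a description and no test. Its intervals cover the counts of 3L and not those of the window. The part of weak scores in the gains and losses of the window was not tested.

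**Figure D3:**
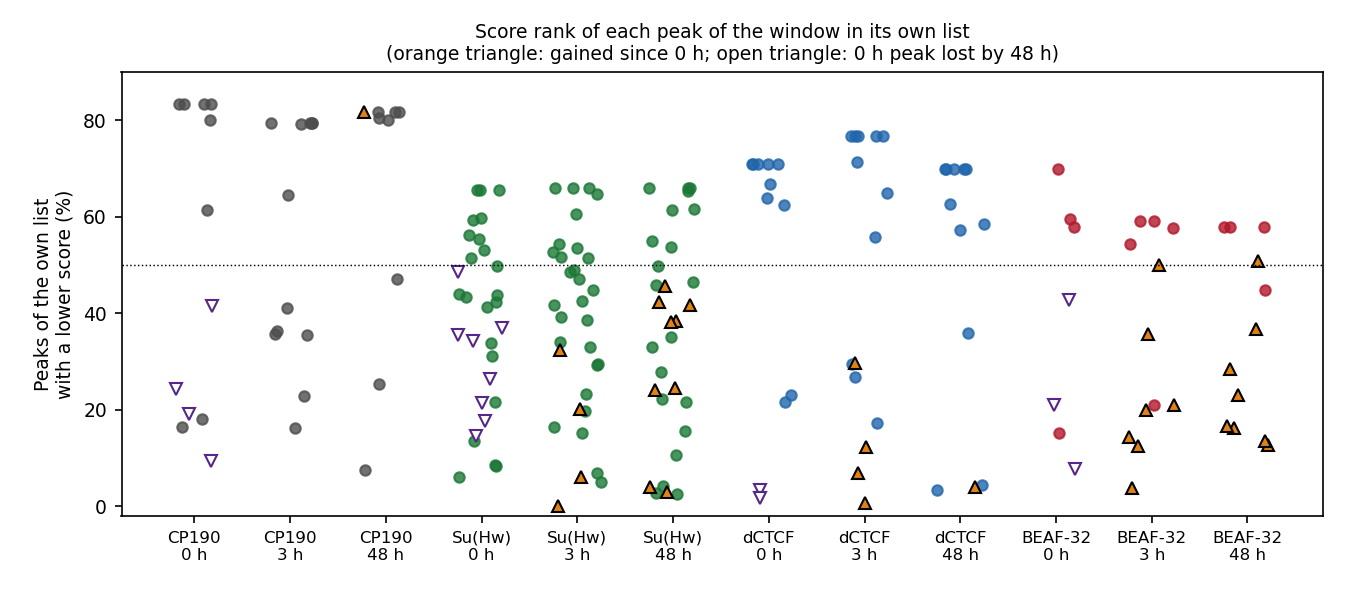
Score rank of every peak of the window, as the percent of its own list with a lower score, by protein and time. Orange triangles are peaks gained since 0 h and open triangles 0 h peaks lost by 48 h; apart from the CP190 gain at the ceiling and 1 BEAF-32 place at each treated time (50.1% and 50.9%), the changes lie below the dotted line at 50%.

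Of the 47 regions, 33 held a peak at 0 h and 37 at either treated time. Su(Hw) alone was the commonest state, in 16 of 33 regions at 0 h (31.6% on 3L), 12 of 37 at 3 h (27.1%) and 18 of 37 at 48 h (29%). CP190 with Su(Hw) and no other was found in 2, 3 and 0 regions at 0, 3 and 48 h (12.2%, 12.1% and 12.5% on 3L), and CP190 with Su(Hw) and dCTCF in 4, 4 and 3 (7.01%, 5.57% and 4.38%). BEAF-32 alone was found in 1, 3 and 3 (7.76%, 10.5% and 14%). All 4 proteins met in 4 regions at 0 h (11.9% on 3L), 3 at 3 h (11.2%) and 3 at 48 h (9.25%). The same set of proteins was listed at all 3 times in 7 of 47 regions (45.1% on 3L). These 7 were the region with all 12 lists, those with Su(Hw) and dCTCF that begin at 18013924 and 18070726, and those with Su(Hw) alone that begin at 17961454, 17963194, 18016668 and 18022436. At the other end, 12 of 47 regions rested on a peak in 1 list (13.8% on 3L).

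**Figure D4:**
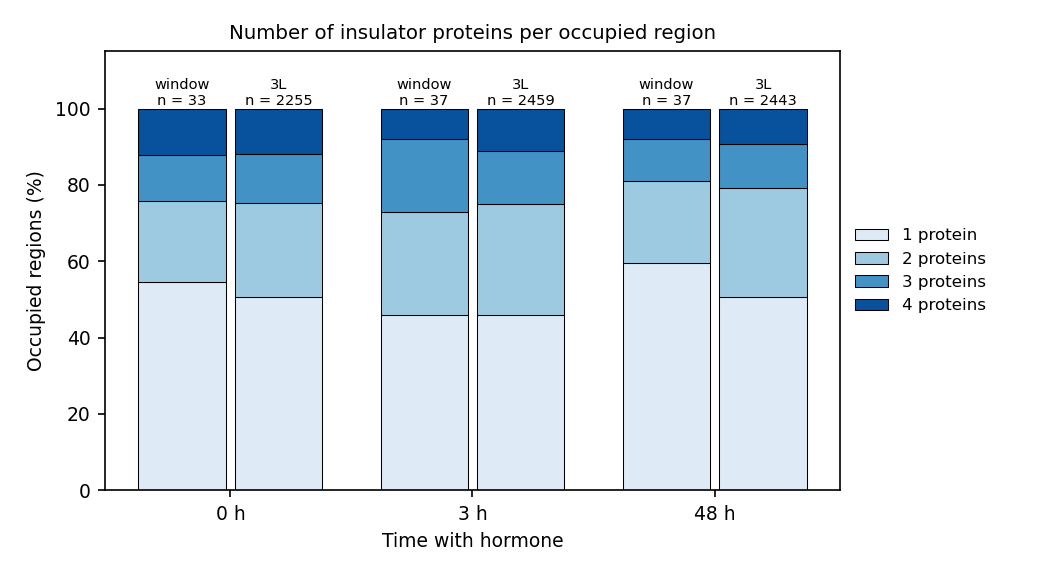
Percent of occupied regions with 1, 2, 3 or 4 proteins at each time, for the window and for 3L, with the number of occupied regions above each bar. Regions with 4 proteins number 4, 3 and 3 in the window.

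The window was set beside the arm, cut into 122 tiles of 200 kb of which it is 1. Its total of 195 peaks was exceeded by 2 tiles, 3L:3300001-3500000 with 198 and 3L:9300001-9500000 with 224, and equalled by 3L:17500001-17700000; the median was 117. For Su(Hw), 1 tile had more peaks at each time, 3L:13500001-13700000 with 41, 44 and 45, and the medians were 13, 14 and 14. For dCTCF at 0 h, 6 tiles had more peaks than the window and 4 had as many. At 3 h no other tile reached the 15 dCTCF peaks of the window, and the next held 14. Of those 15 peaks, 6 scored under 200. At 48 h no tile had more dCTCF peaks and 3 had as many. CP190 lay nearer the middle, with 25, 38 and 58 tiles above it at 0, 3 and 48 h, and BEAF-32 had 43, 37 and 33 tiles above it.

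The place of the window by its count of Su(Hw) peaks depended on the score cut. With scores of at least 200, 97.5%, 98.4% and 97.5% of tiles had fewer Su(Hw) peaks at 0, 3 and 48 h. In the whole lists 98.4% of tiles had fewer Su(Hw) peaks than the window at each time, whereas in the upper 50% of each list 71.3% had fewer at 0 h, 79.5% at 3 h and 61.5% at 48 h.

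Among the tiles, no other had as many Su(Hw) peaks gained by 48 h or lost by 48 h: the window had 9 and 8, and the next highest tiles had 6 and 5. Gains and losses together made up 28.3% of the 60 Su(Hw) peaks of the window at 0 and 48 h, beside a median of 9.3% in the 91 tiles with at least 20 such peaks. For CP190 losses by 48 h, 1 tile exceeded the window and 2 equalled it. For BEAF-32 gains, 5 tiles exceeded it at 3 h and 3 at 48 h. The window was chosen with these changes known, so its place in the order is no evidence of its own.

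**Figure D5:**
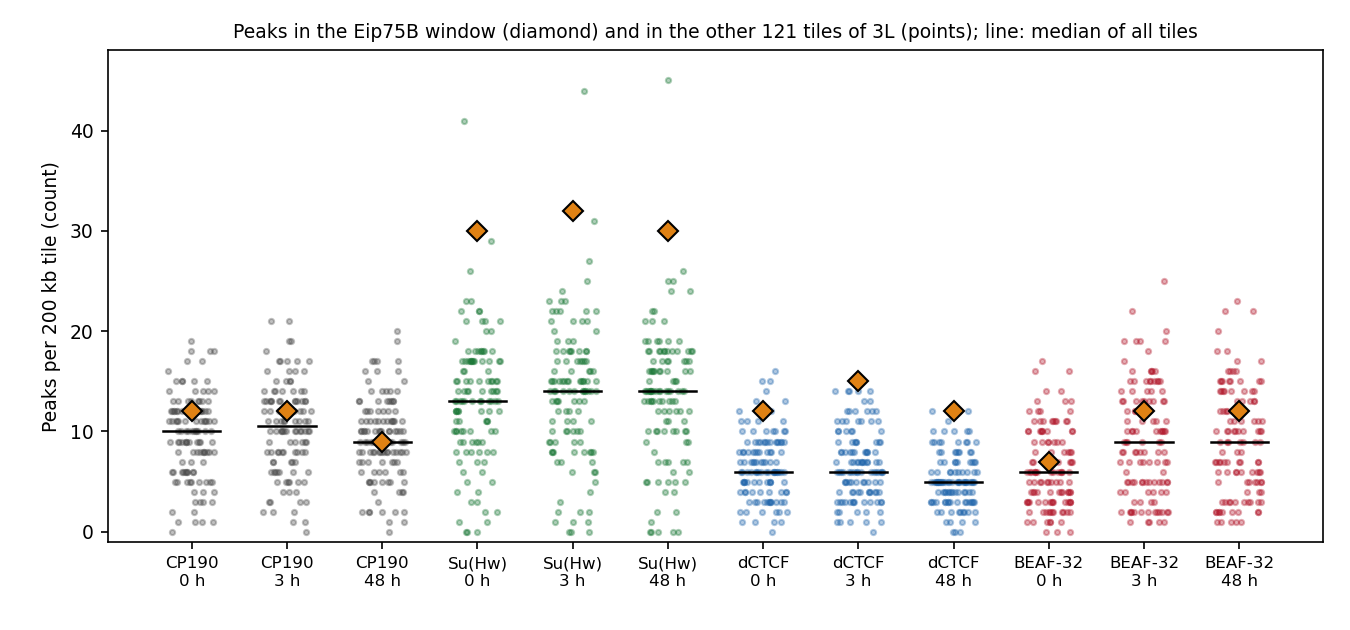
Peaks per tile of 200 kb on 3L for each protein and time; the diamond is the Eip75B window, points are the other tiles (spread sideways at random) and the line is the median of all 122. The Su(Hw) diamonds sit at 30, 32 and 30, beside medians of 13, 14 and 14.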

How the data were processed

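The 12 ChIP libraries each came with a deposited list of peaks. Its columns are the sequence, both ends of the peak, a name with the MACS prefix and a score, per the files. Bowtie 0.12.5 was the aligner named in the submitters' processing notes. Which settings, control and build the caller used is not given in the sources. The score is the authors' deposited value for a peak, and the other deposited columns give positions, counted here from 1. Read depth is unknown.

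The window, members and comparisons were chosen with earlier results of these data known. Peaks were shared at an overlap of 1 bp, and gained or lost with no peak of the other list within 1 kb. Regions merge overlapping peaks of all 12 lists. Shares on 3L include the window. Every complete tile of 200 kb stood in place of random windows. All peaks gained or lost since 0 h, all regions with 4 proteins and the peaks at the ceiling are named. Python 3.11.15, numpy 2.4.6, pandas 2.3.3, scipy 1.17.1 and matplotlib 3.10.9 were used, and the code was first tested on simulated lists.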

Additional observations from a re-analysis of the deposited data

Results flagged for a closer look

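In the window, the number of CP190 peaks changed by -3 between 0 and 48 h, from 12 to 9, and that of BEAF-32 by 5, from 7 to 12. The counts on 3L moved in the same opposite directions, from 1150 to 1126 for CP190 and from 777 to 1117 for BEAF-32. The whole lists did not: CP190 rose from 6691 to 6708 peaks, and BEAF-32 from 6135 to 6536. In the top 50% of each list by score, the window held 6 CP190 peaks at both times and 3 and 4 BEAF-32 peaks. With 1 library each, the difference was not tested.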

How the results depend on the processing

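Of 321 alternative values, 234 stayed within 1.5 times the reported value and 87 did not. With a window of 100 kb, the 195 peaks became 113 and the 47 regions 31. The gains at 3 h went from 15 to 9, the losses from 6 to 3, the losses at 48 h from 17 to 9, and the regions with all 4 proteins from 4 to 2 at 0 h and from 3 to 1 at 3 h. With the top 50% of each list by score, 81 peaks and 18 regions were left. The 3 h lists then had 3 gains and 0 losses, the 48 h lists 4 and 4, and regions with all 4 proteins numbered 1, 1 and 0. Both settings leave out peaks by construction. A window of 300 kb, scores of at least 200, the other limits for overlap and distance, lists of equal length, other merging and other tiles kept these totals within 1.5 times. Counts of 1 protein moved more: with lists of equal length, Su(Hw) gained 2 peaks at 3 h in place of 4, and dCTCF lost 0 by 48 h in place of 2. The cut to the shortest list, of 7972 peaks for Su(Hw) and 5037 for dCTCF, left out these called peaks themselves. The 2 Su(Hw) gains had 8502 and 7998 peaks with a higher score in their list, and the 2 dCTCF losses 5500 and 5406. With scores of at least 200, Su(Hw) gained 2 and dCTCF 1 at 3 h in place of 4 each. Under the same cut CP190 gained 2 at 3 h in place of 0, and 2 at 48 h in place of 1. The comparison of the lower and upper 50% by score was chosen after seeing the data. No paired analysis was possible because each protein and time had 1 library, which also leaves no replicate to leave out.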
